A study of Mus musculus with 20 samples.

Results

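The rows described here are 23 control rows of a mouse oligonucleotide array, out of 9248 rows on the array. Of these, 11 are copy 32 of the repeated controls: M32599 undiluted and at the suffixes :5, :25, :125 and :625, U28917 undiluted and at :5, :25 and :125, NC17 and NCP. The other 12 are 2 runs of numbered rows, E54 to E59 and E187 to E192. Copy 32 was chosen by its levels, which followed the listed steps, and the numbered rows were selected on values that resembled those of copy 32. The levels are therefore given as a description without a test, and the resemblance is not support for any result. The suffixes are read here as dilution factors of 5, 25, 125 and 625, a reading that no label spells out. The annotation used here pairs none of the 23 rows with a gene, so each is called by its row name.

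A dilution series on an array is a ladder of the same control at falling amounts. Where the measurement is linear, the signal falls by the same factor as the amount. It falls by less near the top of the scanner's range or where the spot is saturated, and again where the signal approaches the background. Blank or unrelated control spots show what is read where no matching RNA is present.

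The study measured replicate arrays of 2 mouse RNA pools on the ExpressChip MO3 platform, to assess how much expression values vary within it. One pool was retina from adult C57/B6 mice, the light-sensing neural tissue of the eye. The other was Swiss-Webster cortex taken at postnatal day 1, a brain region whose neurons are still maturing at that age. Each pool was run on 5 arrays at each of 2 sites, and the arrays not marked site 2 are called the first site. All 20 arrays received labelled product from 20 µg of DNase-treated total RNA and carried 1 biotin label. The 5 arrays of a group are technical replicates of 1 pool, so that every p-value below measures the spread between arrays. Tissue, strain and age change together between the pools and cannot be told apart. In RNA from whole tissue, fewer cells of a type and less RNA per cell cannot be told apart either. Over both sites, 0 of 11 rows listed under rod photoreceptor genes were called higher in retina and 1 was called lower, and of 12 rows listed under genes of immature cortical neurons 1 was higher and 2 were lower. The rows of these 2 lists therefore did not separate the pools by their labelled tissues. Of 5 rows listed under retinal pigment epithelium, 3 were called higher in retina and 1 lower. None of 4 rows listed under lens genes was called, and the 1 row listed under erythroid genes was called lower. Whether row names or pool labels play a part in this was not tested.

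The first-site arrays were the brighter ones, with a median intensity of 204 ± 36.0 units in retina and 201 ± 8.88 in cortex (SD, n = 5). The site 2 medians were 55.8 ± 16.8 in retina and 107 ± 34.9 in cortex. Among the first-site arrays, retina 4 and 5 and cortex 3 held 791 to 811 zero values, while the other 17 arrays held 142 to 479. On 3 arrays of site 2, rows of the ladders parted from the rest of their group or from each other: cortex array 1, cortex array 4 and retina array 4. Calls that change without these arrays are given beside the result. The brightest of the 23 rows on each array reached 31.9% to 89.0% of the brightest spot on that array. Intensities below are the deposited values. Log2 levels and differences come from the same values after quantile normalization across the 20 arrays, with a floor of 2.86 units (1.52 on the log2 scale).

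The undiluted M32599 row was among the brightest rows on nearly every array. Its intensity was 36706, 40234, 37775, 33768 and 30912 units on the 5 retina arrays of the first site and 22467, 27641, 19504, 29206 and 23509 on the cortex arrays. At site 2 it was 18412, 19192, 12195, 26845 and 19059 on the retina arrays and 571, 13592, 15489, 9013 and 17771 on the cortex arrays. Retina lay above cortex on the deposited scale at the first site without overlap, but after normalization the ranges of the groups overlapped there. At site 2, cortex array 1 stood at 571 units while its :5 row on the same array read 3235 units, and the other 4 cortex arrays lay between 9013 and 17771.

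The :5 row of M32599 read 21492 to 40677 units on retina and 11505 to 18815 on cortex at the first site, with medians of 34136 and 16448. The site 2 range was 7029 to 12739 on retina and 3235 to 8704 on cortex, with medians of 9928 and 5798. The groups did not overlap at the first site, whereas at site 2 the brightest cortex array exceeded 2 of the retina arrays before normalization.

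The :25 row read 10598 to 23688 units on retina and 4615 to 9771 on cortex at the first site. The site 2 range was 3024 to 5697 on retina and 1596 to 3295 on cortex. The medians were 18666, 7545, 4830.5 and 2497 in that order of groups, so that the row was brighter in retina than in cortex at either site by its median.

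The :125 row of M32599 was at 5959, 6267, 7816, 3998 and 2480.4 units on the retina arrays of the first site and at 2058, 2661, 1100.0, 1227 and 1653 on its cortex arrays. At site 2 it was at 583, 635, 326, 719 and 753 on retina and at 212, 399, 465, 99.9 and 406 on cortex. The highest cortex array of the first site, array 2, exceeded the lowest retina array, array 5, before normalization and not after it. The row was dimmer at site 2 than at the first site on every array of either pool.

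The last step of M32599, :625, read 1172, 1572, 2105, 765 and 536 units on the retina arrays of the first site and 312, 694, 108, 225 and 227 on the cortex arrays. The site 2 values were 152, 271, 88.5, 84.6 and 206 on retina and 57.9, 91.9, 137, 68.2 and 89.1 on cortex. These levels lay between the 47.9 and the 74.3 percentile of all rows by group mean, so that the ladder of M32599 ran from the top of the array's range to about its middle.

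U28917 started from similar brightness, with the tissues in the other order. The undiluted row was at 14475, 25863, 31814, 9676 and 10899 units on retina and at 25863, 30662, 20498, 27888 and 21484 on cortex at the first site. On the site 2 arrays it was at 18036, 11881, 9542, 17832 and 11759 on retina and at 13598, 34984, 33738, 29068 and 37299.6 on cortex. Cortex was brighter by its median at either site, and the groups overlapped at either site.

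The :5 row of U28917 read 5977 to 15613 units on retina and 10444 to 19250.1 on cortex at the first site, and 4584 to 10348 and 12677 to 27709 at site 2. The site 2 groups did not overlap, with every cortex array above every retina array. The :25 row read 3397 to 9127 and 4673 to 10936 at the first site and 1822 to 4203 and 2472 to 13789 at site 2, with overlap at either site.

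At the last step of U28917, :125, intensities were 1534, 1689, 1845, 982 and 545 units on retina and 1651, 2149, 1122, 1664 and 1319 on cortex at the first site. At site 2 they were 814, 585, 359, 722 and 769.5 on retina and 710.4, 1545, 2854, 598 and 1779 on cortex. The tissues overlapped at either site, and the group means of log2 levels lay between 9.86 and 10.51.

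The ladders kept their listed order on nearly every array. M32599 fell at each step on 18 of 20 arrays, the exceptions being retina array 3 of the first site, where :5 was brighter than undiluted, and cortex array 1 of site 2. U28917 fell at each step on 20 of 20 arrays.

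Each step should lower the amount by a factor of 5 on the reading used here, which is 2.32 on the log2 scale. The measured steps were smallest at the top of the ladder in all 4 groups. From undiluted to :5, M32599 fell by a median factor of 1.11 on retina and 1.70 on cortex at the first site, and by 1.93 and 1.78 at site 2. From :5 to :25 the median factors were 1.90, 2.11, 2.31 and 2.64 in the same order of groups. From :25 to :125 they were 3.05, 3.67, 6.72 and 7.40, and from :125 to :625 they were 4.62, 6.59, 3.68 and 3.66. The narrowest step of the whole ladder was thus the first step of retina at the first site, the group in which the undiluted row was brightest. Whether saturation played a part was not tested.

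U28917 also fell least at its first step in all 4 groups. Its median factors from undiluted to :5 were 1.62 on retina and 1.59 on cortex at the first site, against 1.72 and 1.35 at site 2. From :5 to :25 they were 1.74, 2.06, 2.52 and 2.86, and from :25 to :125 they were 4.43, 5.09, 5.07 and 4.83. Only this last step came near 5 in all 4 groups.

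Over the whole ladder, a dilution of 625 lowered the deposited intensity of M32599 by a median factor of 31.3 on retina and 104 on cortex at the first site, and of 121 and 132 at site 2. In log2 of normalized values the fall was 5.09 ± 0.51 and 6.85 ± 0.94 at the first site, against 6.37 ± 0.78 and 6.10 ± 1.69 at site 2 (SD, n = 5). Without cortex array 1 of site 2 that last value was 6.85. For U28917, a dilution of 125 lowered the intensity by median factors of 15.3, 16.3, 22.2 and 21.0, or 3.81 ± 0.56, 4.24 ± 0.19, 4.00 ± 0.30 and 4.30 ± 0.46 on the log2 scale. The fall of M32599 in the retina group of the first site was the smallest of the 4 on either scale.

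The rows NC17 and NCP stayed near 0. NC17 was listed at 0 on all 10 arrays of the first site. At site 2 it was at 0, 0, 8.46, 0 and 1.89 units on retina and at 2.40, 0.28, 0, 13.22 and 0 on cortex. In the first site's arrays NCP was at 0 in retina throughout and on 4 of the cortex arrays, the other being at 11.08. At site 2 NCP was above 0 on all 10 arrays, at 8.59, 1.08, 8.60, 2.31 and 13.50 on retina and at 9.54, 27.74, 15.42, 20.92 and 13.53 on cortex. Both rows thus stood below the last step of either ladder on every array, and their few units of signal were seen mostly at site 2.

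The numbered runs held rows at the levels of both ladders in turn. E55, E57 and E59 are set beside :25, :5 and undiluted M32599, and E54, E56 and E58 beside the same steps of U28917. In the second run, E188, E190 and E192 are set beside M32599 and E187, E189 and E191 beside U28917. No run row was set beside :125 or :625. The median log2 difference of a run row from its copy 32 row over 20 arrays was between 0.19 and 0.51, with the run row the brighter by its median in each of the 12 pairs. The difference stayed within 1 on 18 to 20 of the 20 arrays. The largest departures were E59 at 3.66 and E192 at 4.01 above undiluted M32599, both on cortex array 1 of site 2. On that array the undiluted copy 32 row read 571 units while E59 read 7704 and E192 read 9718.

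Within each run the rows rose in the order of the steps. E55, E57 and E59 rose in that order on 20 of 20 arrays, as did E54, E56 and E58. E188, E190 and E192 rose on 19 of 20 arrays, and so did E187, E189 and E191, the exception in both being retina array 4 of site 2. The brightest run row was E59 on most retina arrays, at 43323, 46408, 45712, 39726 and 39100.0 units in the retina group of the first site.

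The runs also gave a comparison of 2 sets of rows on the same array, whose places on the slide are not known here. The median ratio of the 6 rows of the first run to their counterparts in the second was 0.741 to 1.14 on 18 arrays. It was 2.36 on retina array 4 of site 2 and 0.392 on cortex array 4 of site 2. On retina array 4 of site 2, E59 read 37209 units and E192 read 9204. On cortex array 4 of site 2, E57 read 1942 units and E190 read 7375. These 2 arrays were the ones on which rows set at the same step differed most between the runs.

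The rows just outside the runs were mostly dim, but not all of them. The direct neighbours E53, E60, E186 and E193 had group means between 1.52 and 2.25 on the log2 scale, at or near the floor. Further out, E61 had first-site means of 12.56 in retina and 11.83 in cortex and site 2 means of 12.53 and 11.96. E198 had 12.77, 12.29, 12.19 and 11.24 in the same order, and members also had such levels. E52 lay between 10.38 and 11.76 and E182 between 11.30 and 11.86. The copy 31 rows did not form ladders: M32599 copy 31 stood at 8.47 undiluted and at 9.93 at :125 in retina at the first site, and the 4 U28917 rows of copy 31 lay between 1.52 and 2.48 in all 4 groups. Over all 11 names, copies 1 to 31 ranged from 1.55 to 14.25 in mean level. Copy 32 of undiluted M32599 and of undiluted U28917 was brighter than all 31 other copies of its name, while copy 32 of NC17 was brighter than 4 of them and that of NCP than 10.

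Between arrays of a group, the bright members varied more than other bright rows. In the 4 groups, 15 to 18 members had a mean log2 level of at least 12, and their median SD was 0.36 (first-site retina), 0.40 (first-site cortex), 0.31 (site 2 retina) and 0.28 (site 2 cortex). All rows with such a level, the members included, had a median SD of 0.19, 0.17, 0.16 and 0.17. They were not matched to the members by level above that minimum. These SDs are descriptions, since the members share their arrays.

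Retina was compared with cortex at each site by step, with 1 limma model over all 9248 rows and Benjamini-Hochberg adjustment over those rows. A call required an adjusted p under 0.05 and a log2 difference of 1 or more in size. At the first site 5 of the 23 members were called higher in retina, where 11.9% of all rows were, and none was called lower, where 12.8% of all rows were. Without the minimum size, limma put 8 members higher and 7 lower at an adjusted p under 0.05 (20.9% and 22.7% of all rows), and 9 higher and 8 lower at an unadjusted p under 0.05 (23.3% and 25.4% of all rows). 9 members had all retina arrays above all cortex arrays and none had them all below, against 17.7% and 18.7% of all rows. The median difference of the 23 members was 0.00, as it was over all rows.

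The members higher in retina at the first site were those of the M32599 kind, and the difference was wider at the lower steps. The log2 difference was 0.39 ± 0.53 (SE, limma adjusted p = 0.641) undiluted and 0.92 ± 0.19 (adjusted p = 0.000576) at :5, neither of which was called. The model pools the spread of all 4 groups, so the undiluted SE and p include cortex array 1 of site 2. The undiluted row had an SD of 0.13 (first-site retina) and 0.25 (first-site cortex), against 1.74 for site 2 cortex. Its p therefore does not show how the difference compares with the spread of the first-site arrays alone. The difference was 1.11 ± 0.25 at :25 (limma adjusted p = 0.00114), 1.60 ± 0.30 at :125 (0.000177) and 2.15 ± 0.44 at :625 (0.000439), and these 3 rows were called. The differences between the steps were not tested. Without cortex array 3, the :25 row was no longer called, at 0.92, and without retina array 5 the :5 row was called, at 1.03. With the 3 arrays that had many rows at 0 left out, the :5 row was called at 1.00.

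The run rows beside M32599 had the same sign at the first site, which is not separate support because of how they were selected. E55, beside :25, was higher in retina by 1.43 ± 0.30 (limma adjusted p = 0.000615), and E188 by 1.27 ± 0.21 (5.12e-05). In intensity, E55 read 22485, 28886, 29806, 14496 and 12571 units on retina and 8707, 8710.1, 4058, 8329 and 6833 on cortex. The groups of E55 did not overlap. E57 and E190, beside :5, differed by 0.97 and 0.81 and were not called, with limma adjusted p of 0.00576 and 0.00556. E59 and E192, beside undiluted, differed by 0.47 and 0.46, with limma adjusted p of 0.0711 and 0.131. The p-values of the run rows likewise include the spread of the site 2 arrays. E57 stood close to the minimum size and was called at 1.03 without retina array 4, at 1.09 without retina array 5, at 1.00 to 1.04 without cortex array 1, 2 or 5 and at 1.02 without the 3 arrays with many rows at 0.

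Every member of the U28917 kind had a negative difference at the first site, and none reached the minimum size. U28917 was lower in retina by 0.77 ± 0.20 undiluted (limma adjusted p = 0.00408) and by 0.72 ± 0.19 at :5 (0.00368). At :25 the difference was -0.57 ± 0.25 and at :125 it was -0.34 ± 0.26, with limma adjusted p of 0.0745 and 0.348. The 6 run rows beside U28917 lay between -0.89 and -0.55, again no separate support because of how they were selected. The most negative, E191, passed the minimum size without retina array 3, at -1.03, or without cortex array 3, at -1.07. NC17 had no difference because it was at 0 on all arrays of the site, and NCP had 1 array above 0.

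At site 2, 10 of the 23 members were called higher in retina, where 13.3% of all rows were, and none was called lower, where 14.4% of all rows were. Run rows made up 5 of these 10, and their values and calls are not separate support at this site either. Without the minimum size, 11 were higher and 3 lower at a limma adjusted p under 0.05 (22.5% and 24.3% of all rows), and 11 and 4 at an unadjusted p under 0.05 (25.3% and 26.8% of all rows). Retina and cortex did not overlap for 9 members higher in retina and for 3 lower, against 17.4% and 19.2% of all rows. The median difference of the members was 0.03 and that of all rows was 0.01.

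All 5 steps of M32599 were called higher in retina at site 2, and at each of them the normalized retina and cortex arrays did not overlap. The differences were 1.82 ± 0.53 undiluted (limma adjusted p = 0.00819), 1.34 ± 0.19 at :5 (9.3e-06), 1.53 ± 0.25 at :25 (4.39e-05), 1.85 ± 0.30 at :125 (3.51e-05) and 1.55 ± 0.44 at :625 (0.0064). These values did not rise step by step towards :625. The undiluted value rested in part on cortex array 1: without that array the difference was 1.05, still called. When the site 2 arrays alone entered the model, the undiluted row had a limma adjusted p of 0.0656 and was not called.

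Of the run rows beside M32599, 5 of 6 were called higher in retina at site 2. E55 was higher by 1.87 ± 0.30 (limma adjusted p = 3.7e-05), E57 by 1.58 ± 0.27 (6.49e-05) and E59 by 1.12 ± 0.20 (0.000129). E188 was higher by 1.43 ± 0.21 (limma adjusted p = 1.3e-05) and E190 by 1.04 ± 0.22 (0.0007), while E192 differed by 0.61 ± 0.24 (0.0432) and was not called. E55 read 4461, 3423, 2479, 6489 and 3888 units on retina and 1128, 2776, 4022.5, 475 and 2934 on cortex. Its lowest retina array lay below 3 of the cortex arrays on the deposited scale, but the normalized values did not overlap. E59 was at 0.93 without cortex array 4 and at 0.72 without the 3 site 2 arrays that stood apart, and was not called in either case. E190 was at 0.93 to 0.99 and not called without retina array 2, 3 or 5 or cortex array 2.

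The members of the U28917 kind were again negative and again not called. U28917 :5 was lower by 0.83 ± 0.19 (limma adjusted p = 0.00112). The undiluted row was at -0.38 (limma adjusted p = 0.134), :25 at -0.39 (0.219) and :125 at -0.08 (0.826), and the sign of the last turned without cortex array 3. Among the run rows, E189 was lower by 0.89 ± 0.20 and E191 by 0.79 ± 0.30, with limma adjusted p of 0.00125 and 0.0349, and E187, E54, E56 and E58 lay between -0.52 and -0.17. The sign of E58 turned to 0.04 with median scaling. NC17 was at 0.03 and NCP at -1.14 (limma adjusted p = 0.126), the latter reaching -1.62 (0.0196) without retina array 5.

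The scaling between arrays weighed on the site 2 values, because the retina arrays of that site were the dimmest. Without any normalization the median difference of all rows at site 2 was -0.69, and the M32599 rows differed by 1.37, 0.71, 0.82, 1.07 and 0.77 from undiluted to :625, of which only :125 was called. In the same setting the 4 U28917 rows differed by -1.07, -1.49, -1.20 and -1.03 and all were called lower. The median difference of all rows was negative there too, and the share of all rows called in that setting is not given here. These calls are therefore not read as a result about the members. No setting tried turned the sign of an M32599 row or of a run row beside it in the comparison of retina with cortex at either site.

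Averaged over both sites, 8 of the 23 members were called higher in retina and none lower, where 12.4% and 13.7% of all rows were. They were the 5 M32599 rows with E55, E57 and E188. At an unadjusted p under 0.05, limma put 11 members higher and 8 lower, where 27.8% and 29.8% of all rows were. The 5 M32599 differences were 1.11, 1.13, 1.32, 1.73 and 1.85 from undiluted to :625, and E55 was at 1.65, E188 at 1.35 and E57 at 1.28. The undiluted row was at 0.72 and not called without cortex array 1 of site 2, and at 0.74 without the 3 site 2 arrays that stood apart. Nor was it called without the 3 first-site arrays with many rows at 0 (1.09, limma adjusted p = 0.0578), without normalization (0.96, 0.0796) or at an adjusted p under 0.01 (1.11, 0.018). E190, at 0.92, was called at 1.04 without retina array 4 of site 2 and at 1.07 without the 3 site 2 arrays. No member was called for a tissue difference that changed between the sites (limma, all adjusted p at least 0.297), where 1.02% of all rows were called. E59 alone had an unadjusted p under 0.05 there, where 14.6% of all rows had one, with a change of 0.65 ± 0.29, and it was called at 1.12 with median scaling. For undiluted M32599 the change was 1.43 ± 0.75 (limma adjusted p = 0.398). Both the change and its SE include cortex array 1 of site 2, at a log2 level of 9.93 where the next cortex array was at 13.51.

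The ratio of an M32599-kind row to the U28917-kind row of the same step needs no scaling between arrays, because both are read on 1 array. At the undiluted step it was 1.19 to 3.49 on retina and 0.869 to 1.09 on cortex at the first site, and 1.02 to 1.62 and 0.0420 to 0.476 at site 2. At :5 it was 2.39 to 3.89 on retina and 0.944 to 1.10 on cortex at the first site, and 0.978 to 1.53 and 0.232 to 0.337 at site 2. At :125 it was 3.71 to 4.55 and 0.737 to 1.25 at the first site, and 0.717 to 1.08 and 0.163 to 0.298 at site 2. In each of these, the lowest retina array lay above the highest cortex array of its site.

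The :25 ratio was 2.55 to 3.36 on retina and 0.835 to 0.988 on cortex at the first site, and 1.15 to 1.85 and 0.239 to 1.01 at site 2. The run rows were put beside the ladders for values that resembled them, so that the ratios within the runs are a description and add nothing to those of copy 32. E55 over E54, for instance, was 2.68 to 3.53 on retina and 0.737 to 0.830 on cortex at the first site, and 0.754 to 1.35 and 0.158 to 0.323 at site 2. The 4 ratios of copy 32 were without overlap of the tissues at either site, as were the 6 of the runs. No share over other pairs of rows is given here, so how usual this is remains unknown. Among single normalized rows, 17.7% lay wholly higher and 18.7% wholly lower in retina at the first site. At site 2 these shares were 17.4% and 19.2%. The ratios share arrays and, as read here, 2 controls, and are no separate replicates of the tissue difference.

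The medians of all 10 ratios were lower at site 2 than at the first site in both pools, which was not tested. The median :5 ratio was 3.18 on retina and 0.974 on cortex at the first site, against 1.30 and 0.281 at site 2. The median :125 ratio was 4.07 and 1.24 at the first site, against 0.979 and 0.228 at site 2.

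Site 2 was compared with the first site within each pool. In retina 3 members were called lower, where 8.9% of all rows were, and 1 higher, where 7.47% were. The lower ones were M32599 :125 at -1.59 ± 0.30 (limma adjusted p = 0.00037), M32599 :625 at -1.23 ± 0.44 (0.0337) and E55 at -1.09 ± 0.30 (0.00815). Leaving out retina array 1, 2 or 3 of the first site or 1, 3 or 4 of site 2 ended the call of :625, with limma adjusted p between 0.0528 and 0.0984, as did leaving out the 3 site 2 arrays that stood apart (0.118). In cortex 4 members were called lower, where 6.56% of all rows were, and 1 higher, where 4.41% were. These 4 were M32599 :5 at -1.03 ± 0.19 (limma adjusted p = 0.000473), :25 at -1.07 ± 0.25 (0.00335), :125 at -1.84 ± 0.30 (0.00012) and E55 at -1.53 ± 0.30 (0.000777). Leaving out cortex array 1 or 2 of either site ended the call of :5, at -0.99 to -0.95, and leaving out array 2 of either site ended that of :25, at -0.95 and -0.94. Undiluted M32599, at -1.37 and not called (limma adjusted p = 0.0616), was called without cortex array 4 of site 2 at -1.61 (0.0386) and without array 5 at -1.65 (0.0329). All 3 of these values include cortex array 1 of site 2, where the row had a log2 level of 9.93. The other cortex arrays of site 2 lay between 13.51 and 14.11, and the first-site cortex mean was 14.39. The difference thus rested in large part on that 1 array. E57, at -0.96, was called at -1.14 without cortex array 3 of the first site at -1.01 without cortex array 1 of site 2, and also without cortex array 2, 3 or 5 of site 2. E59, at -0.87, was called at -1.03 without cortex array 3 of site 2.

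The member called higher in each pool was NCP (limma adjusted p = 0.015 in retina and 0.00106 in cortex). Since NCP was listed at 0 on nearly all arrays of the first site, no fold is given. The call depended on the floor, and with a floor at 35.0 units neither was called. In retina it was also lost without the 3 first-site arrays with many rows at 0 (limma adjusted p = 0.0649). The same held when only the compared groups were fitted (limma adjusted p = 0.0657), without normalization (0.209) and at an adjusted p under 0.01. With median scaling or normalization within each site, the retina difference fell below the minimum size. The U28917 rows all had positive differences, from 0.36 to 0.76 in retina and from 0.18 to 0.85 in cortex, and none was called.

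These site differences depended on the scaling, since the deposited medians differ between the sites. With median scaling 8 members were called higher and 1 lower in retina, where 13.8% and 6.81% of all rows were, and 7 and 2 in cortex, where 9.12% and 5.75% were. Without normalization 0 were called higher and 10 lower in retina, where 0.205% and 72% of all rows were, and 1 and 10 in cortex, where 0.519% and 38.1% were. The median difference of all rows was then -1.60 in retina and -0.78 in cortex, and with quantile normalization within each site it was -1.11 and -1.10. The sign of every U28917 row in either pool turned under at least 1 of these scalings, except that of :5 in cortex, whereas M32599 :125 and :625 and E55 were lower at site 2 in both pools under all of them.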

How the data were processed

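Linear intensities were deposited by the authors, 1 for each row and array, with no value below 0. Not given in the sources used here are the scanner, a background correction and a scaling between arrays. All 20 arrays were quantile normalized together, values under the 5th percentile of positive values were raised to it, and the result was put on the log2 scale. The 4 groups entered 1 linear model over 9248 rows (lmFit and eBayes of limma 3.58.1, under R 4.3.3), which was tested on simulated data. Every member is named, and beside them only rows just outside the rule. Ratios within an array use the deposited intensities. Precision is limited by 5 arrays in a group. Replicate numbers were checked for pairing: of 30 same-numbered pairs of arrays, 3 correlated above 0.1 in their deviations from the group mean. The number was therefore used only in an alternative fit. Such a check cannot exclude that same-numbered arrays were handled together. The members, lists and tests were chosen with earlier results of these data known.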

Additional observations from a re-analysis of the deposited data

Results flagged for a closer look

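In 89 of the 92 combinations of a member and a group of 5 arrays the values spread enough to compare the outermost array with the rest. In 18 of them its gap to the nearest other array exceeded 0.71 of the group's whole range (Dixon's criterion). Chance alone gives this in about 1 of 20 groups, and the members share their arrays. That rate does not hold for the NC17 and NCP flags below. There all other arrays of the group lay at the floor, so any higher value was flagged. Values are log2 levels.

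Cortex array 3 of the first site was the low array 8 times, at 13.01 for U28917 :5, 11.91 for E54, 11.52 for E55, 13.25 for E56, 13.10 for E57, 12.09 for E187, 11.92 for E188 and 13.15 for E189. It is 1 of the 3 first-site arrays with many rows at 0.

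On cortex array 1 of site 2, undiluted M32599 was at 9.93, while the next cortex array was at 13.51. On cortex array 4 of site 2, M32599 :125 was low at 7.65, E57 at 11.76 and E58 at 14.39, and NC17 was high at 4.46. On retina array 4 of site 2, E57 was high at 14.95, while E190 was low at 13.54 and E192 at 13.52. E54, E56, E58 and E187 lay within the range of the other 4 retina arrays there.

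NC17 was high at 4.60 on retina array 3 of site 2, and NCP at 2.44 on cortex array 2 of the first site, with the other 4 arrays of each group at the floor.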

How the results depend on the processing

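Over the alternatives tried, 4467 of 4634 values for a member and comparison kept their side of the call, 47 lost a call and 120 gained one. No called value changed sign. Among the 4467, 110 values that were not called changed sign. Leaving out each array in turn gave 5 to 7 called members for retina against cortex at the first site, 9 to 10 at site 2, 7 to 9 over both sites, 0 for the change between sites, 3 to 4 for site 2 against the first site in retina and 3 to 7 in cortex. In the same way the fall of M32599 over its ladder was 4.91 to 5.24 in retina and 6.59 to 7.19 in cortex at the first site, and 6.06 to 6.56 and 5.80 to 6.85 at site 2. The fall of U28917 was 3.67 to 3.98, 4.18 to 4.30, 3.94 to 4.13 and 4.14 to 4.46 in that order. The shares of all rows called with each array left out are not given here. The ranges of called members above are therefore not read as a result about the members.

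Without the minimum size 15 members were called at the first site, 19 over both sites, 12 in retina and 11 in cortex between the sites. Median scaling gave 1 for the change between sites, and between the sites 9 in retina and 9 in cortex. No normalization gave 10 and 11 there, and normalization within each site gave 7 and 12. An adjusted p under 0.01 left 2 in retina. With median scaling or none, the fall of U28917 was 4.02 in cortex at the first site and 4.42 in retina at site 2. The cause of these shifts was not tested.

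Among all 9248 rows, 2413 were called over both sites, 2286 at the first site and 2560 at site 2. Without the minimum size these were 4965, 4034 and 4330, and with rows under the median row left out, which tests fewer rows and drops NC17 and NCP, 1522 over both sites and 1575 at site 2. For the change between sites, 94 rows were called. There were 150 with median scaling, 2166 with none (16 higher and 2150 lower), 158 with normalization within each site, 62 without rows under the median row, 44 at an adjusted p under 0.01, 193 without the minimum size and 59 without the 3 first-site arrays. Between the sites, 1514 rows were called in retina and 1015 in cortex. No normalization gave 6677 (19 higher) and 3569 (48 higher), normalization within each site 5003 (89 higher) and 4942 (51 higher), no minimum size 3496 and 2649, and leaving out rows under the median row 746 and 582. The higher floor gave 995 in retina.

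With the replicate number as a replicate block, 8 members were called over both sites, 5 at the first site, 10 at site 2, 0 for the change between sites, 4 in retina and 5 in cortex between the sites, all shared with the fit without the block. Of all 9248 rows, 2412, 2266, 2544, 70, 1473 and 987 were called in that fit, in the same order. No array correlated best with its own number except in 2 of 30 cases. A setting that leaves out cortex arrays 1 and 4 and retina array 4 of site 2 was chosen after seeing the data. Fitting only the compared groups was run for the comparisons of 2 groups, since the others use all 4. Dim values set the limit: NC17 and NCP lay at or near the floor.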
